A study of Mus musculus with 27 samples.

Results

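Of 61991 autosomal tiles of 1 kb with at least 5 positions listed in all 27 samples, 1006 (1.62%) differed widely among mice of at least 1 strain while the strain means stayed within 30 percentage points of each other. A tile is a fixed window of the genome, and its level in a sample is the mean percent methylation over its positions. A tile was a member when the highest and lowest of the 3 samples of at least 1 strain lay 30 or more percentage points apart and the 9 strain means spanned less than 30 points. The members were thus selected on the tile levels of these same samples, and their within-strain ranges and strain means are a description without a test. The 9 strain means spanned a median of 18.6 points in members, against 5.01 in all eligible tiles. A mouse far from the others also moves the mean of its strain. This contrast is therefore partly set by the rule, and nothing about the strains is read from it. A further 461 tiles varied as much within a strain but had strain means 30 or more points apart, and were left out by the rule.

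The study surveyed DNA methylation, along with chromatin marks and gene expression that are not analysed here, in hepatocytes of inbred mice. Reduced representation bisulfite sequencing (RRBS) was run on hepatocyte DNA of 27 female mice aged 12 weeks, 3 for each strain. WSB/EiJ, PWK/PhJ and CAST/EiJ derive from wild mice, and NZO/HlLtJ, NOD/ShiLtJ, DBA/2J, C57BL/6J, A/J and 129S1/SvImJ are laboratory strains. The labels name no treatment and no altered gene, and call the samples of a strain biological replicates. Mice of an inbred strain are close to genetically identical, so that genotype is shared within each group of 3.

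Metastable epialleles are loci at which methylation is set to different levels in genetically identical animals early in development and is then kept in many tissues. The best known in the mouse are insertions of intracisternal A particle retrotransposons, such as those at agouti and Axin1, where the level in an animal goes with its coat colour or tail shape. Imprinted regions are another class of partly methylated DNA, in which one parental copy carries methylation and the other does not, so that a cell population reads near the middle of the scale in every animal.

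Genes linked to both kinds of locus were looked at by lists. Of 13 genes near insertions described as variable, all were in the gene table and 42 eligible tiles overlapped them or lay within 1 kb. Of the 42, 5 had a mean level of 20 to 80%, and 0 were members, against 1.62% of all eligible tiles. The largest within-strain range among those tiles was 26.0 points. Of 24 imprinted genes, 87 tiles were eligible and 11 (12.6%) were members. They lay at or beside Mest, Peg3, Peg10, Nnat, Gnas, Airn, Igf2r, Zrsr1 and Igf2. All 11 had a mean level of 20 to 80%, and of the 55 imprinted tiles at that level 20% were members, against 5.80% of all 9844 eligible tiles at that level, a contrast given without a test. Of the 11, 7 reached 30 points in at least 2 strains. The 11 genes of the methylation machinery had 51 eligible tiles and 0 members, and the 10 hepatocyte genes had 15 and 0. With so few tiles beside that background share, nothing is read from these zeros.

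The labelled cell type was looked at through methylation near gene starts. The start region of Apoa2, a hepatocyte apolipoprotein, had a median level of 0.631% over the samples, Apob 11.5% and Hnf4a, a master regulator of hepatocytes, 5.04%. The other 7 hepatocyte genes had no listed position there. Among genes of other liver cells, the endothelial genes Kdr and Tek read 3.02 and 87.7% at their starts, the stellate cell genes Lrat, Reln and Des 2.76, 0.587 and 10.5%, and the bile duct genes Epcam and Krt7 16.8 and 22.4%. No macrophage or leukocyte gene had a level there. The largest range of these levels within a strain was 2.67 points for Apoa2, 15.2 for Apob and 12.2 for Hnf4a. It was 1.66 for Kdr, 23.3 for Tek (3 positions), 2.82 for Lrat, 0.491 for Reln, 3.68 for Des, 5.95 for Epcam and 11.8 for Krt7, and the part of these levels in the members' variation was not tested. The lists for macrophages, leukocytes, endothelial cells, stellate cells and bile duct cells had 5, 4, 12, 15 and 15 eligible tiles and 0 members, too few tiles to read anything from beside 1.62%. The share of other cells in each sample was not measured.

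The members were tiles with few positions and intermediate to high methylation. They held a median of 6 positions, against 10 in all eligible tiles, and 79.1% of them held 5 to 7, against 34.1%. Their median level was 73.1%. Of the members 56.8% lay between 20 and 80%, against 15.9% of all eligible tiles, and 7.36% lay under 20%, against 42.0%. Fewer members overlapped a protein-coding gene (63.3% against 73.6%), and 10.7% lay within 1 kb of a gene start, against 31.8%. The number of positions and the level enter the rule through the mean and its error, so these contrasts are partly set by the choice of members.

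**Figure D1:**
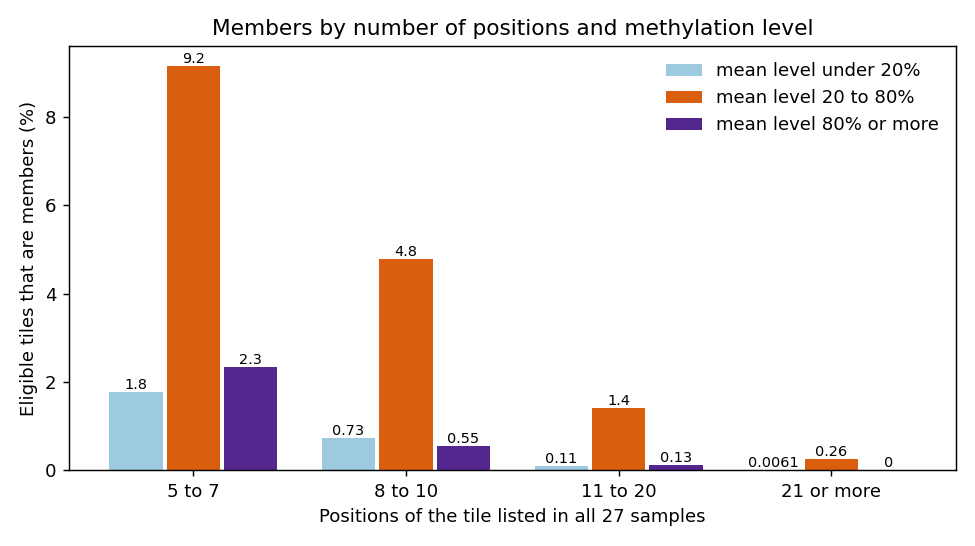
Percent of eligible tiles that were members, by the number of positions of the tile listed in all 27 samples (x axis) and its mean level over all samples (bar colour). At 20 to 80% methylation the percent fell from 9.15 with 5 to 7 positions to 0.259 with 21 or more.

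The plot of members by number of positions shows both features together. In tiles with 5 to 7 positions and a level of 20 to 80%, 427 of 4666 (9.15%) were members. With 8 to 10 positions at the same level it was 113 of 2360 (4.79%), with 11 to 20 it was 29 of 2047 (1.42%) and with 21 or more it was 2 of 771 (0.259%). Among all 17919 tiles with 21 or more positions, 3 were members. The count depended on how a tile is summarised: 493 tiles met the rule when both strands of a CpG were averaged first and counted once, 353 of them among the 1006, and 2473 met it when the median over positions replaced the mean, 560 of them among the 1006. Members were spread over all 19 autosomes, from 1.24% of eligible tiles on chromosome 16 to 1.98% on chromosome 2.

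Most members reached a range of 30 points in a single strain, which is called varying in that strain below. The range reached 30 points in 1 strain only for 819 members (81.4%), in 2 strains for 135, in 3 for 40, in 4 for 9, in 5 for 2 and in 6 for 1. The median of the largest range was 34.5 points, and the typical strain at these tiles had a median range of 12.2 points, against 3.52 over all eligible tiles. Among tiles with strain means within 30 points, a tile that reached 30 points in a given strain also did so in another in 6.82% of 10088 tile and strain pairs, against 0.22% for a tile that did not. With the number of positions held at 5 to 7 and the level at 20 to 80%, the same shares were 9.83% and 1.70%. These shares use the ranges and the limit on strain means that define the members. Read depth is not known, and its part in them was not tested. Just inside the threshold lay tiles in Aff3, Gm16332 and Nkx2-2, each at 30 points. Just outside lay a tile in Tll2, one on chromosome 8 starting at 26771001 and one in Gm28729, each at 29.96 points.

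C57BL/6J contributed the most members and NZO/HlLtJ the fewest. A range of 30 points was reached in C57BL/6J at 320 members (31.8%), and 236 of these reached it in no other strain. The corresponding counts were 161 in 129S1/SvImJ, 152 in NOD/ShiLtJ, 126 in DBA/2J, 125 in A/J, 110 in PWK/PhJ, 106 in CAST/EiJ, 85 in WSB/EiJ and 76 in NZO/HlLtJ. Over all eligible tiles, 0.769% reached 30 points in C57BL/6J. In the other strains it was from 0.200% in NZO/HlLtJ to 0.424% in 129S1/SvImJ. The median range over all eligible tiles was also largest in C57BL/6J, at 3.58 points. Elsewhere it was 2.83 in NZO/HlLtJ to 3.10 in DBA/2J, so the excess in C57BL/6J is not particular to the members. Without C57BL/6J the rule gave 794 members. The C57BL/6J files also differ from the others in their name for the mitochondrial chromosome, so a difference in processing and the strain cannot be told apart.

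The count per mouse moved with a property of the whole library. In each member and strain at 30 points, 1 of the 3 mice lies farther from the middle one than the other does, and is called apart here. The percent of listed autosomal positions that were neither 0 nor 100 ran from 23.1 to 33.9 over the samples. In 9 of 9 strains the mouse most often apart was the one with the lowest such percent. In A/J this rests on a near tie: replicates 3 and 1 were both at 29.3% but were apart in 59 and 30 members, and replicate 2, at 33.7%, in 36. In C57BL/6J, replicate 1 (23.1%) was apart in 134 members, replicate 4 (24.3%) in 120 and replicate 2 (28.7%) in 66. In CAST/EiJ, replicate 1 (27%) was apart in 46 members, replicate 4 (29.2%) in 41 and replicate 5 (33.5%) in 19. In NZO/HlLtJ the numbers were 32 at 29.7%, 28 at 30.7% and 16 at 33.4%. The files give no read counts, and the part of sequencing depth in this order was not tested. The mouse apart was the low one in 814 of 1261 cases (64.6%) and the high one in 447. In the widest strain of each tile alone, it was the low one in 67.1% of members, against 49.5% of all eligible tiles. The 2 sets were not matched for level: 7.36% of members lay under 20%, against 42.0% of all eligible tiles. A tile near 0% has room only upward and one near 100% only downward, and the part of level was not tested.

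**Figure D2:**
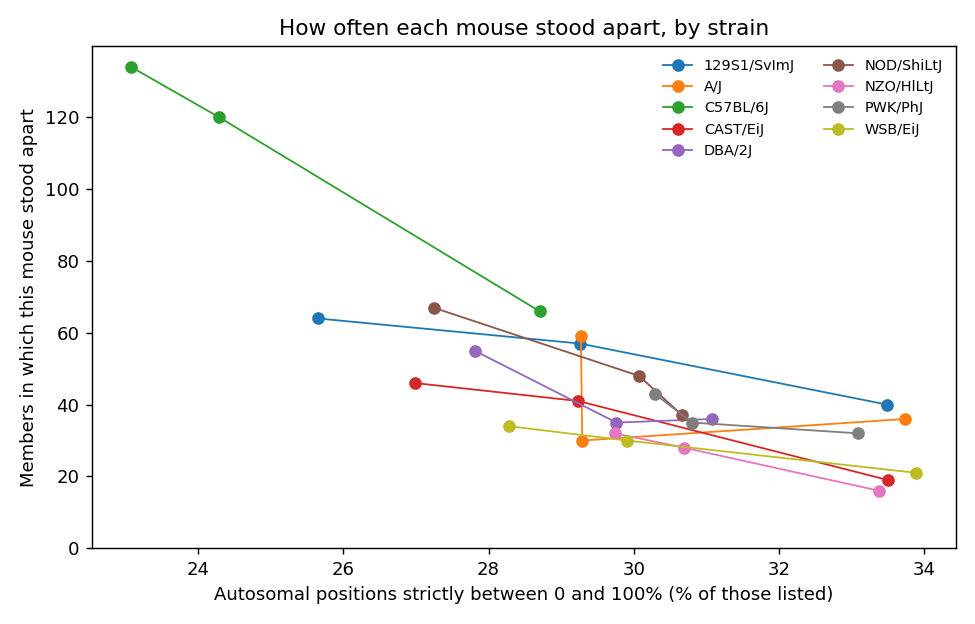
Number of members in which a mouse stood apart from the other mice of its strain (y axis) against the percent of its listed autosomal positions that were strictly between 0 and 100% (x axis), 1 point per mouse, with lines joining mice of a strain. The highest point is C57BL/6J replicate 1 with 134 members at 23.1%, and the lowest is NZO/HlLtJ replicate 1 with 16 at 33.4%.

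When tiles were chosen on one strand alone, the difference among mice of a strain fell to a median near 0 on the other strand. RRBS reads the strands of a CpG as separate positions, so the second strand can be read in mice chosen on the first. In 1415 tiles that met the rule on first-strand positions alone (at least 3 CpGs listed on both strands), the mouse that was highest on the first strand was above the lowest one on the second strand in 718 (50.7%), below it in 629 and equal in 68. The median second-strand difference was 0.352 points, against a median of 34.7 points on the strand that chose the mice. With the strands exchanged, 1400 tiles met the rule and the order held in 696 (49.7%), with a median difference of 0. This check was added after the data had been seen.

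For mice of 3 different strains, and for strain means, the order carried over between strands more often. In this reading a tile needed only the range of 30 points on the first strand, without the limit on strain means that held for the 1415 and 1400 tiles. One mouse each of C57BL/6J, CAST/EiJ and PWK/PhJ differed by 30 or more points on the first strand in 1449 tiles. The order held on the second strand in 1277 of these (88.1%), with a median difference of 23.7 points. With the strain means of all 9 strains in place of single mice, it held in 1713 of 1745 tiles (98.2%), with a median of 33.5 points. Counted strain by strain, the share for 3 mice of one strain ran from 49.8% in WSB/EiJ to 59.1% in DBA/2J, over 211 to 659 tiles per strain. These tiles too were chosen without that limit and are not a breakdown of the 1415. All of these shares are descriptions over tiles, which share libraries. No other set of 3 strains was read. Genotype differs between strains but is shared within one, and its part in these shares was not tested.

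**Figure D3:**
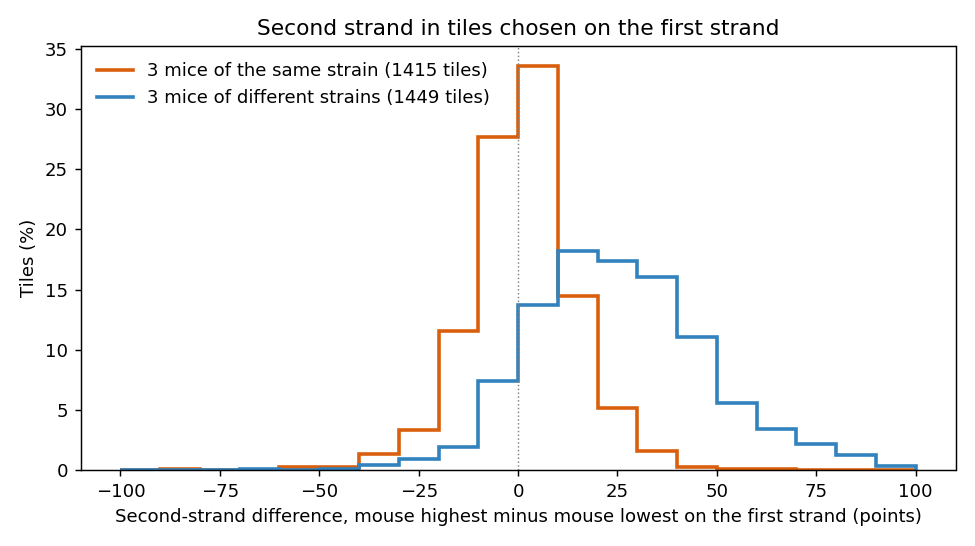
Distribution of the second-strand difference between the mice that were highest and lowest on the first strand (x axis, percentage points), as percent of tiles in bins of 10 points (y axis). For 3 mice of the same strain (1415 tiles) the median is 0.352, and for 3 mice of different strains (1449 tiles) it is 23.7.

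The members themselves showed an order on both strands, but both strands had entered the rule. Among the 216 members with 3 CpGs on both strands, the order held in 190 (88.0%) with a median second-strand difference of 26.2 points, against 72.0% and 1.2 points in all 41185 such eligible tiles. Of the 1415 tiles chosen on the first strand alone, 119 were members. Positions of the same tile that are not listed in every sample had no part in the rule. At these, 408 members could be read in the mice concerned at 3 or more positions. The higher mouse was also higher in 217 (53.2%), lower in 163 (40.0%) and equal in 28, with a median difference of 1.32 points against 34.4 points at the positions that chose the mice. Over all 31879 eligible tiles that could be read this way the order held in 43.7% and was opposite in 36.3%. In 22 of the 408 the difference was again 30 points or more in the same direction (5.39%), against 1.75% of those eligible tiles. Reversed differences are not in these counts. Over all members 56.8% lay at 20 to 80%, against 15.9% of all eligible tiles. The readings were not matched for level, so nothing is read from this contrast.

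Adjacent tiles gave a like result. Of 279 neighbouring tiles that were not members, 160 (57.3%) had the same mouse higher and 117 the other, with a median difference of 0.418 points, and 2 differed by 30 points or more in the same direction. Over all eligible tiles with a neighbour the order held in 52.2% of 31760. A neighbour near 0 or 100% leaves little room for a difference. Among the 84 neighbours at 20 to 80% the order held in 59.5%, with a median difference of 2.74 points. Over all 3622 such readings the values were 56.8% and 0.998 points. In the same direction, 1 of the 84 differed by 30 points or more (1.19%, against 0.966%). Reversed differences are not in that count, and the neighbour in Gnas from 174296001 differed by -73.1 points. Of the members, 26 lay beside another member, in 13 pairs, and in those the order held in 15 of 26 readings. Whether any member is a metastable locus was not tested.

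The strain test was fitted across all tiles as a description. Of 44013 tiles with a mean away from both ends of the scale, limma's moderated F test called 11674 (26.5%) different between strains at an adjusted p under 0.05. Of the members 1005 entered this test and 97 (9.65%) were called. The rule had limited the strain means and demanded a wide spread within a strain, so nothing is read from this share.

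Mest, which is methylated on the maternal copy and expressed from the paternal one, held the member that varied in the most strains. It lies on chromosome 6 from 30738001 to 30739000 (GRCm38), overlaps the gene and one of its starts, and holds 6 positions spanning 757 bp. From lowest to highest mouse its level was 16.7, 20.8 and 72.2% in 129S1/SvImJ, 8.33, 17.5 and 70.8% in A/J, 26.7, 33.3 and 52.8% in C57BL/6J, and 4.17, 16.7 and 54.8% in CAST/EiJ. It was 0, 22.2 and 50% in DBA/2J, 20.8, 30 and 33.3% in NOD/ShiLtJ, 16.7, 33.3 and 66.7% in NZO/HlLtJ, 8.33, 19.4 and 38.9% in PWK/PhJ, and 11.1, 11.1 and 35.6% in WSB/EiJ. In 129S1/SvImJ, A/J, CAST/EiJ and WSB/EiJ, 1 mouse stood well above a low pair, and the ranges of all 9 strains overlapped. The range reached 30 points in 6 strains and the 9 strain means spanned 19.6 points. In A/J, where the range was 62.5 points, replicate 3 was the highest at 6 of 6 positions, and at 11 positions not listed in every sample it was above replicate 1 by 12.9 points. In the neighbouring tile of 9 positions it was above it by 15.2 points (54.3 against 39.0%).

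The promoter window of Mest that reaches into this tile is shown because it is the start of the imprinted gene, and it carries 17 CpGs, in capitals. None of its positions was listed in all samples, so the member was read downstream of it. It is from RefSeq on GRCm38.p6, chr6:30737803-30738102, plus strand.
Mest: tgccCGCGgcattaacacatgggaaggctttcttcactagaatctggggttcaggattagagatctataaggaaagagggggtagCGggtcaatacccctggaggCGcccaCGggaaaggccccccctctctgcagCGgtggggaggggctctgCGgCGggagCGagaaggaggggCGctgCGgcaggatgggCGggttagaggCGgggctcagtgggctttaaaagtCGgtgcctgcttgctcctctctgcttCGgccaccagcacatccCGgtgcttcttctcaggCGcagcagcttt

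A second member at Mest, from 30735001 to 30736000 with 8 positions, ordered the A/J mice the other way. Replicate 1 was at 60.5%, replicate 2 at 48.8% and replicate 3 at 20.6%, whereas in the first Mest tile replicate 1 was the lowest and replicate 3 the highest. At this tile the first strand differed by 60.9 points and the second by 17.9 points between replicates 1 and 3, while 3 further positions differed by -15.7 points, in the opposite direction.

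Gnas, which encodes the stimulatory G protein alpha subunit within a complex imprinted locus, held 3 members on chromosome 2. The tile from 174297001 to 174298000 has 19 positions over 994 bp and is among the 5 members with most positions. From lowest to highest mouse its level was 37.6, 41.1 and 57.2% in 129S1/SvImJ, 26.7, 49.2 and 49.6% in A/J, 11.4, 35.0 and 67.9% in C57BL/6J, and 24.9, 49.9 and 51.9% in CAST/EiJ. It was 21.2, 23.7 and 67.7% in DBA/2J, 28.7, 37.7 and 47.0% in NOD/ShiLtJ, 24.4, 48.7 and 56.3% in NZO/HlLtJ, 39.9, 42.8 and 44.7% in PWK/PhJ, and 21.6, 40.6 and 41.1% in WSB/EiJ. The mice of PWK/PhJ lay within 4.79 points of each other, whereas those of C57BL/6J spanned 56.5 points and those of DBA/2J 46.5 points. The 9 strain means spanned 10.8 points.

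In C57BL/6J the single positions of this Gnas tile were often at an end of the scale. Replicate 1 was at 0% at 16 of 19 positions and replicate 2 at 11, whereas replicate 4 was at 0% at none and was alone the highest at 13. The first strand differed by 56.4 points and the second by 80 points between replicates 4 and 1, over 5 CpGs. In the next tile upstream, from 174296001 with 7 positions, the order was reversed: replicate 1 was at 88.4%, replicate 2 at 15.9% and replicate 4 at 15.3%. That tile also varied within other strains (13.6, 80.6 and 14.5% in NOD/ShiLtJ replicates 1, 2 and 3), but its strain means spanned 39.8 points, so it is no member. In the next tile downstream, with 33 positions, replicate 4 was at 63.5% and replicate 1 at 58.4%. The pair thus differed by -73.1 points on one side and by 5.16 points on the other.

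The other Gnas members lay within the antisense transcript Gnasas1 as well as Gnas. The tile from 174286001 with 18 positions read 23.8, 43.8 and 60.9% in C57BL/6J replicates 1, 2 and 4, the same order as above, and replicate 4 was 10.4 points above replicate 1 at 12 further positions. It also reached 30 points in WSB/EiJ (16.0, 31.2 and 48.3% from lowest to highest). The tile from 174291001 with 5 positions read 74.5, 86.7 and 56.7% in the same C57BL/6J mice, another order.

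The other imprinted members had fewer positions or smaller ranges. Airn is the noncoding RNA that silences the growth factor receptor gene Igf2r on the paternal chromosome. Its tile on chromosome 17, from 12770001 to 12771000 with 7 positions over 28 bp, overlaps Airn but not Igf2r. The nearest gene start lies 295 bp away. The tile read 4.76, 61.9 and 48.8% in C57BL/6J replicates 1, 2 and 4. It reached 30 points also in A/J (10.5, 26.2 and 42.9% in replicates 1, 2 and 3) and CAST/EiJ (23.8, 64.3 and 32.1% in replicates 1, 4 and 5). In the neighbouring tile of 88 positions C57BL/6J replicate 2 was at 25.9% and replicate 1 at 42.5%, the opposite order. Igf2, a fetal growth factor, had a member of 6 positions (chromosome 7, from 142654001) that read 56.3, 38.9 and 8.33% in PWK/PhJ from highest to lowest and 43.1 to 45.8% in C57BL/6J. Peg3, a paternally expressed zinc finger gene, read 49.5, 34.9 and 66.0% in 129S1/SvImJ replicates 1, 2 and 3 over 9 positions, and its range there of 31.1 points became 29.7, under 30, with the median over positions in place of the mean. Peg10 (18 positions) reached a range of 30 points in DBA/2J, Zrsr1 (9 positions) 31.9 points in C57BL/6J and the tile beside Nnat (8 positions) 42.3 points in NZO/HlLtJ. In 5 of these tiles both strands, which had entered the rule, could be read at 3 or more CpGs, and the order of the extreme mice was the same on both in each. The first strand differed by 72.2 points at Airn, 77.8 beside Nnat, 46.2 at Peg10, 29.9 at Peg3 and 16.8 at Zrsr1. The second differed by 44.4, 20, 13.5, 13.4 and 24.6 points in the same tiles. The neighbouring tiles, which had no part in the choice, differed by -7.83 and 7.95 points on the 2 sides of the Nnat tile and by -15.2 points beside Zrsr1.

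**Figure D4:**
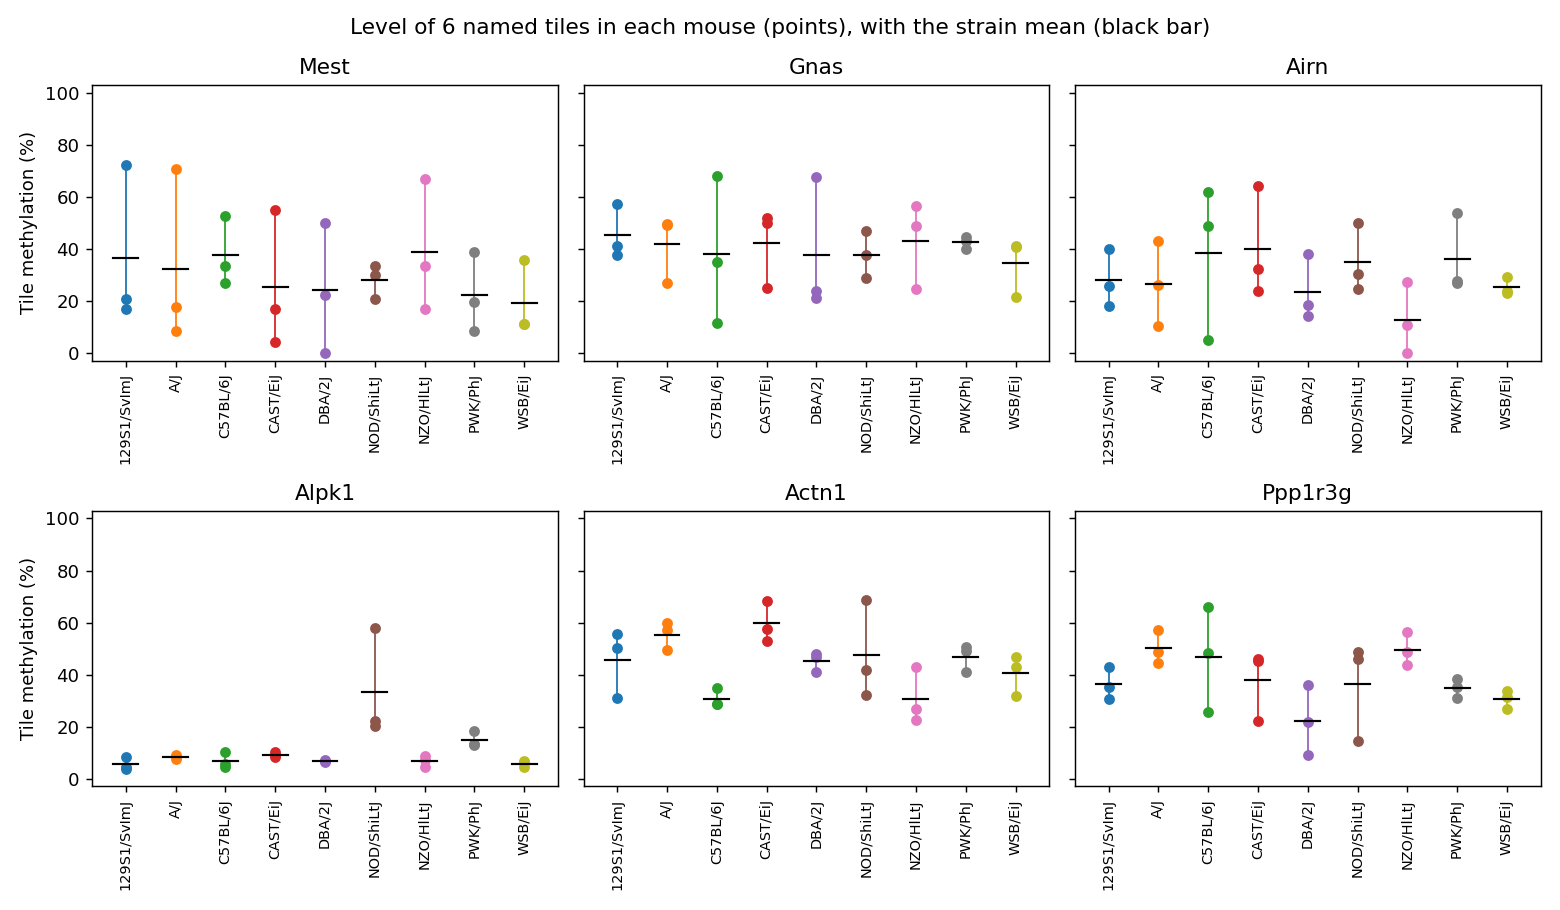
Level of 6 tiles in each mouse (points, y axis in percent), by strain, with the strain mean as a black bar. The widest strain was A/J at Mest (62.5 points) and C57BL/6J at Gnas (56.5 points) and Airn (57.1 points), and at Alpk1 the mice of NOD/ShiLtJ lay at 20.3 to 57.7% above all mice of the other strains.

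Alpk1, a kinase that senses a bacterial sugar, held a member whose further positions also differed by more than 30 points. The tile lies inside the gene on chromosome 3, from 127695001 to 127696000, with 24 positions spanning 197 bp. In NOD/ShiLtJ replicate 1 was at 57.7%, replicate 2 at 22.2% and replicate 3 at 20.3%. The mice of the other 8 strains lay between 3.87% (129S1/SvImJ) and 18.2% (PWK/PhJ), so every NOD/ShiLtJ mouse was above every other mouse, and the strain means spanned 27.8 points. NOD/ShiLtJ replicate 1 was alone the highest of its strain at 24 of 24 positions. It was at 54.7% on the first strand and 63.3% on the second, against 14.0% and 27.4% for replicate 3, over 10 CpGs. The 24 positions and both strands had entered the rule. At 18 further positions, which are not listed in every sample and had not, it was 68.5 points above replicate 3.

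**Figure D5:**
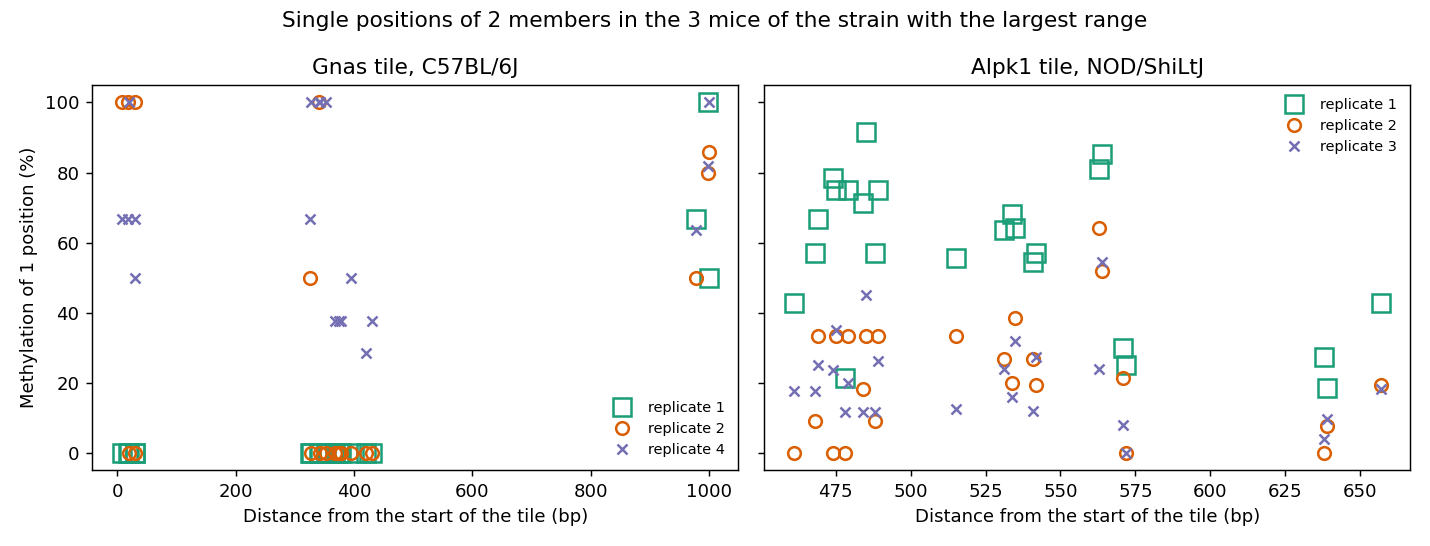
Percent methylation of single positions (y axis) by distance from the start of the tile (x axis, bp) in the 3 mice of the strain with the largest range, 1 symbol per mouse. In the Gnas tile replicates 1 and 2 of C57BL/6J are at 0% at 16 and 11 of 19 positions, and in the Alpk1 tile NOD/ShiLtJ replicate 1 is the highest at 24 of 24.

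Members with most positions, singled out after their values were seen, included Actn1 and L3mbtl1 beside Alpk1 and Gnas. In Actn1, which encodes an actin crosslinker, 28 positions on chromosome 12 from 80168001 read 32.3, 68.7 and 41.8% in NOD/ShiLtJ replicates 1, 2 and 3. Replicate 2 was alone the highest at 24 of 28 positions, by 47.3 points over replicate 1 on the first strand, by 30.2 on the second and by 25.6 at 11 further positions. Mice of other strains lay between 22.6 and 68.3%, and NOD/ShiLtJ replicate 2 was above all of them. In L3mbtl1, a chromatin reader, 22 positions read 80.6, 59.9 and 90% in NZO/HlLtJ replicates 1, 2 and 3, with 26.9 and 30 points between the extreme mice on the first and second strand.

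In 41 members the same mouse was highest and the same lowest, by 30 points or more, on both strands of at least 3 CpGs in one strain. These were chosen by that agreement, which is no support for it. In 37 of them a matching strain also reached 30 points over the whole tile. At the further positions, which the choice did not use, 15 of the 37 could be read in the widest such strain: the order held in 10, the median difference was 7.76 points and 3 differed by 30 points or more. The 3 were Alpk1, Procr and Lrrc23, named after their values were seen. Procr, the endothelial protein C receptor, read 69.3, 91.3 and 50.7% in 129S1/SvImJ replicates 1, 2 and 3 over 10 positions, and replicate 2 was 52.2 points above replicate 3 at 3 further positions. Lrrc23 read 73.7, 38.9 and 74.8% in NOD/ShiLtJ replicates 1, 2 and 3 over 9 positions, and replicate 3 was 46.3 points above replicate 2 at 4 further positions. In 1 tile the order was reversed by 30 points or more: on chromosome 7, from 69770001, the WSB/EiJ mice differed by -50 points over 3 positions. Over all 41, 18 could be read, the order held in 11, the median was 5.84 points, and 3 tiles were reversed by 30 points or more. The added 2 lay in strains whose whole-tile range stayed under 30 points: Gli1, a transcription factor of the hedgehog pathway, differed by -32.8 points (C57BL/6J, 5 positions) and the Gnas tile with 19 positions by -83.3 points (CAST/EiJ, 3 positions). In 129S1/SvImJ, the widest strain of Gli1, the order held, by 35.6 points. For Procr and Lrrc23 the neighbouring tile differed by 2.90 and 0.418 points between the same mice.

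The remaining tiles that varied in many strains had 5 to 8 positions. Anks1, an adaptor of Eph receptors, varied in 5 strains (chromosome 17, from 28015001, 5 positions). From lowest to highest its 3 mice read 38.9, 61.8 and 99.2% in NOD/ShiLtJ, 48.6, 57.1 and 98.8% in A/J, 54.0, 97.3 and 98.6% in C57BL/6J, 53.6, 81.8 and 96.5% in 129S1/SvImJ and 63.5, 85 and 96.0% in NZO/HlLtJ. In each of these at least 1 mouse was near full methylation. The highest mouse of each other strain was also high, from 91.7% in WSB/EiJ to 96.6% in CAST/EiJ. At 8 further positions the extreme NOD/ShiLtJ mice differed by -2.64 points, so the mouse that was high before was slightly lower there. Rufy1, an endosomal adaptor, varied in 5 strains at one tile (chromosome 11, from 50421001) and in 4 at the next. At the first, 129S1/SvImJ and C57BL/6J were at 30 points, and the strain means spanned 29.9 points, just under the limit. In NZO/HlLtJ the first read 44.0, 27.6 and 90% and the second 45.0, 24.6 and 43.3% in replicates 1, 2 and 3.

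Tiles in Cadm4, a cell adhesion molecule, Onecut3, a homeodomain transcription factor, Brf2, a subunit of an RNA polymerase III factor, Rbfox3, a neuronal splicing factor, and Banf2os varied in 4 strains each. So did 3 tiles outside annotated genes, and another such tile on chromosome 5 varied in 3 strains. Their largest ranges lay between 39.4 points on chromosome 18 (from 76448001) and 73.3 points in Cadm4. With the median over positions in place of the mean, the range of the chromosome 18 tile in the same strain fell to 25 points, below 30. The same change took the range, in the strain where the mean gave the largest, from 47.6 to 73.2 points at Banf2os, from 53 to 100 at Onecut3, from 40.3 to 62.5 at Brf2 and from 60.2 to 100 at Anks1, and at Gnas from 37.1 to 62.5 in the tile from 174286001 and from 30 to 66.7 in the one from 174291001. In Cadm4 C57BL/6J replicates 1, 2 and 4 read 100, 73.3 and 26.7%. Where further positions could be read, the same pair of mice differed by 7.5 points at Cadm4, by 33.3 at Onecut3, by 10 in the chromosome 4 tile from 153222001 and by -15.6 at Banf2os.

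The 5 largest ranges that remained belonged to tiles with 5 positions each, in which 1 mouse read 0% or 100% at nearly all of them. In Kcnq5, a potassium channel gene, PWK/PhJ replicate 1 was at 100%, replicate 3 at 95% and replicate 2 at 20%, the last with 4 of 5 positions at 0% and 1 at 100%. In Dpf3, a chromatin remodelling subunit, PWK/PhJ replicate 1 was at 20% while replicates 2 and 3 were at 90 and 100%. In Ldlrad4, CAST/EiJ replicate 1 was at 20% and replicates 4 and 5 at 100 and 80%. In Samd4, an RNA-binding repressor, C57BL/6J replicate 1 was at 25% and replicates 2 and 4 at 100 and 93.3%. A tile on chromosome 5 (from 110628001) read 80% in CAST/EiJ replicate 1 and 10 and 15.0% in replicates 4 and 5. Over the other 8 strains the Kcnq5 mice lay between 60 and 91.7%, so that the low mouse lay below all of them. At 10 further positions in Dpf3 the extreme mice differed by 1.78 points, and at 3 in the chromosome 5 tile by 0.

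Few members reached a gene start. A promoter window is taken here as the 250 bases before and 50 after a RefSeq start. Of the 971 members on autosomes with such windows in the table, 4.43% overlapped a window, against 21.7% of 60202 eligible tiles, and 23 had positions inside one. Of these 23, 3 with a known liver or signalling role are shown to place the readings on the sequence, and were picked after their values were seen. Pck1 encodes the rate-limiting enzyme of gluconeogenesis, Ppp1r3g a subunit that directs a phosphatase to glycogen, and Bmp4 a secreted signalling ligand. Capitals mark CpGs with a position listed in all samples, and the sequences are RefSeq's on GRCm38.p6. Pck1 is chr2:173152823-173153122 on the plus strand, Ppp1r3g chr13:35967656-35967955 on the plus strand and Bmp4 chr14:46390620-46390919 on the minus strand.
Pck1: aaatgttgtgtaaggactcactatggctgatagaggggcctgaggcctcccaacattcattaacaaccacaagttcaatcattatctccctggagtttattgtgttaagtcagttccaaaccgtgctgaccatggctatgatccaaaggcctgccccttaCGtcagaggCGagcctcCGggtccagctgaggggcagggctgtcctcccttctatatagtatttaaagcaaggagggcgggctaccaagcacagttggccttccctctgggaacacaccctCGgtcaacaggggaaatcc
Ppp1r3g: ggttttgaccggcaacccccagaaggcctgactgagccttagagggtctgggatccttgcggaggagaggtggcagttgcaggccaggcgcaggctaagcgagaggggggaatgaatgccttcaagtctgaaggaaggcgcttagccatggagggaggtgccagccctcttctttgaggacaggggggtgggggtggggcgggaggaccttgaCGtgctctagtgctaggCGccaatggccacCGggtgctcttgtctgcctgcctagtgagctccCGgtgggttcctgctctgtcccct
Bmp4: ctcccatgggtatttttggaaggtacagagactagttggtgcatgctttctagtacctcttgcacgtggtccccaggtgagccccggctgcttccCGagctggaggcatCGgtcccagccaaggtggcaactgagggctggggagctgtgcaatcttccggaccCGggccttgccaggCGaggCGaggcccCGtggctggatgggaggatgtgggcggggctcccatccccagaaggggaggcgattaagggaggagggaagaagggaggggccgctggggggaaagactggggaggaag

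At Pck1 the variation within C57BL/6J lay upstream of the window. The tile (chromosome 2, from 173152001, 7 positions) read 39.2, 44.6 and 9.52% in C57BL/6J replicates 1, 2 and 4. Its 3 positions inside the printed window averaged 0, 2.08 and 3.03% from lowest to highest in these mice, and ranged most in PWK/PhJ, by 19.2 points. The other positions lay 292 to 350 bp into the tile. There, the strands of one CpG disagreed: at 298 bp the replicates read 8.33, 30.8 and 33.3%, and at the next base, the other strand, 100, 100 and 0%. At 4 further positions not listed in all samples, replicate 2 minus replicate 4 was -2.38 points. The letters ACGTCA, part of a cAMP response element and searched on both strands, occur in the printed window 91 bases before the start and in 7.57% of 31396 autosomal windows. The listed position of that CpG was at 0% in 23 of 27 samples and at most at 20%.

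At Ppp1r3g and Bmp4 the printed windows held most of the tile. For Ppp1r3g, 6 of 8 positions lay in the window, and over these the C57BL/6J mice read 22.3, 39.5 and 60.2% and the NOD/ShiLtJ mice 9.70, 41.9 and 45.8%, from lowest to highest. With the median over positions the range of the whole tile, in the strain where the mean gave the largest, went from 40.5 to 61.7 points. In WSB/EiJ the same window positions read 19.2, 26.4 and 27.3%, close together. At 3 further positions of the tile the extreme C57BL/6J mice were in the opposite order, by -22.2 points. For Bmp4, 6 of 8 positions lay in the window, and from lowest to highest they read 22.2, 36.5 and 55.6% in DBA/2J, 26.4, 59.0 and 62.5% in NOD/ShiLtJ and 45.8, 47.7 and 47.9% in PWK/PhJ. At 4 further positions the extreme DBA/2J mice kept their order, by 24.3 points, while the neighbouring tile of 5 positions was at 0% in both.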

How the data were processed

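Libraries were made with an MspI-based RRBS kit, per the labels' protocols. The submitters' processing notes name Trim Galore 0.6.3, Bowtie2, Bismark 0.22 and the builds GRCm38 and mm10. The authors deposited, for each sample, the percent methylation of single positions. The files hold no read counts or coverage, so the depth behind a value is not known and intervals from counting cannot be given. Whether a coverage filter preceded deposit is not given in the sources used here.

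Tile levels are means over autosomal positions listed in all 27 samples (1653370 of 5076653 listed in any). Both strands of a CpG are separate positions. Of the positions inside RefSeq promoter windows (GRCm38.p6), 99.6% fell on a CpG. Chromosome 18 has no promoter window here. The rule, members and gene lists were chosen with earlier results of these data known.

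A planned quasi-binomial model on read counts was replaced, as the files hold percentages, by limma 3.58.1 in R 4.3.3: a moderated F test over strains on log2((percent + 5)/(100 - percent + 5)), with Benjamini-Hochberg adjustment over all tiles tested. The test was also run on simulated data, whose outcome is not reported here and is no support for the calls. Other values were computed in Python 3.11.15 with numpy 2.4.6 and pandas 2.3.3.

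Tiles are named by 4 rules: the 12 regions variable in the most strains (adjacent members counted as 1, ties by the larger median range), the 5 largest other ranges, all members at listed genes, and 3 tiles on either side of the threshold. The 5 members with most positions, those alike on both strands and at further positions, and the gene starts were added after the values were seen. Alternatives changed the number of positions, tile borders, strand and summary, the samples left out, and the test's offset, scale, filter and block.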

Additional observations from a re-analysis of the deposited data

How the results depend on the processing

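The files give no depth, so the error of a single value cannot be set from counts. The number of members ranged from 842 to 978 when each sample was left out in turn (842 without C57BL/6J replicate 1), and the number variable in at least 2 strains from 141 to 179. With at least 10 positions per tile, 72 and 8 remained. With strands averaged the 2 numbers were 493 and 92, which also counts each CpG once toward the minimum of 5, and with medians over positions 2473 and 733. Chosen after seeing the data, leaving out in each strain the sample with the lowest percent of positions between 0 and 100 gave 358 and 22, and leaving out the one with the highest gave 509 and 56. Both leave 2 mice per strain, which alone narrows the ranges.

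The share of members with the same order on the second strand ranged from 87.1 to 89.6% over samples left out and was 96.2% with at least 5 CpGs on both strands. It was 50.7% and 49.7% when tiles were chosen on one strand alone. The share for adjacent tiles ranged from 55.1 to 59.3% over samples left out and was 61.0% for neighbours with at least 10 positions. Tiles different among strains by limma numbered 10594 to 11720 over samples left out and 6841 with at least 10 positions. With the replicate block they numbered 9798. Deviations from the strain means had a median correlation of 0.00449 over 76 pairs of same-numbered samples of different strains. Over 248 differently numbered pairs it was -0.000953. A median over all tiles cannot show a batch shared at some of them, and whether the numbers pair samples was not tested further. Of 72 values for 36 named tiles, 66 moved by less than 1 SD of the 3 mice and 6, all with medians over positions, by more. The SD of 3 mice grows with their range, so this yardstick is wide for tiles chosen for a wide range. With medians, Kcnq5 went from 80 to 100 points and the chromosome 18 tile from 39.4 to 25, both within it. The count of 66 is thus no sign of stable ranges. The cause of these changes was not tested beyond what each setting alters by construction.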
